A study of Mus musculus with 32 samples.

Results

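Transcripts of the mitochondrial ribosomal protein genes were followed through the day in livers of mice kept under short or long days. The set was taken by name: every gene of the deposited log2 table whose symbol is Mrpl or Mrps followed by a digit, without pseudogene symbols. That gave 77 of the 13432 genes of the log2 table, 48 named for the large subunit (Mrpl) and 29 for the small subunit (Mrps), and the same identifiers were read from the count table of 55471 genes. One further annotated gene of this name, Mrpl53, had 35 reads in all libraries together and is not a member.

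The livers came from 32 male mice of the inbred strain C3H/HeNCrl, and RNA was sequenced from polyadenylated transcripts. The groups were short light (SL) at zeitgeber time (ZT, hours on the light schedule) 0, 6, 12 and 18, and long light (LL) at the same 4 times, with 4 mice each (n = 4 per group unless stated). All 8 groups carried the same strain and were fed a high fat diet (labelled HFD), so no group shows these genes on another diet. How long the light lasted in SL or in LL, and which event marks ZT0, the sources used here do not give.

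Mitochondria hold their own ribosome, the mitoribosome, which translates the few proteins encoded in mitochondrial DNA, all of them membrane parts of the respiratory chain and ATP synthase. Its ribosomal RNAs come from mitochondrial DNA, whereas all of its proteins are encoded in the nucleus, translated in the cytosol and imported. Some descend from proteins of the bacterial ribosome and others were added in mitochondria; liver mitochondria are rich in these respiratory complexes.

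Libraries held 9095615 to 27462776 counted reads, with a median of 15665632, and 14456 genes passed the filter on low counts, all 77 members among them. Of the 8 hepatocyte markers all were detected, with a sum between 108000 and 139000 CPM (reads scaled to library size) per library. Arntl and Dbp, a clock activator gene and a clock output gene, mark the time of day: a 24 h cosine wave through the 4 times had its maximum for Arntl near 13.1 h (SL) and 23.4 h (LL), and for Dbp near 1.16 h (SL) and 10.5 h (LL). The SL minus LL difference in peak time was -10.3 h for Arntl and -9.34 h for Dbp, so each comparison at a shared ZT sets different clock phases side by side.

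All members were expressed, at levels that differed widely from gene to gene. Mean levels over all libraries ran from 3.32 to 94.7 CPM, with a median of 21.4 CPM, against a median of 12.15 CPM over all 14456 tested genes. Per kilobase of exon, Mrpl12, which codes for the flexible stalk protein of the large subunit, stood highest at 61.8 CPM per kb (49.0 to 80.5 over the libraries). Mrpl14 followed with 40.9 CPM per kb and Mrpl18, whose protein sits in the central protuberance of the large subunit, with 30.2 CPM per kb. Lowest per kilobase were Mrpl23, whose protein lies at the exit of the peptide tunnel, with 1.18 CPM per kb, Mrps25 with 1.62 and Mrpl48 with 1.63. The length used matters for this order: divided by the main annotated transcript in place of all exons, Mrpl23 moved to 8.35 CPM per kb and place 56 of 77, while Mrps25 was last and Mrpl12 and Mrpl14 stayed first and second. Mrps36, now known as an adaptor of a Krebs cycle enzyme complex rather than a ribosomal protein, had 1.93 to 5.72 CPM in the libraries. As 3 annotated pseudogenes share its name, its reads are uncertain. The 3 members lowest per kilobase carry limits of this kind too. Mrpl23 and Mrpl48 each have 1 annotated pseudogene of their name. Mrps25 shares 4590 of its 6576 bases of exon with Nr2c2 on the opposite strand.

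As a whole the set kept to a narrow band. The summed level of the 77 members was between 1828.1 and 2188.2 CPM in 31 of 32 libraries, in which they took 0.186 to 0.223% of all reads. In SL the mice at ZT0 had 2070.5, 1889.6, 2071.6 and 2044.9 CPM, against 1920.2, 1828.1, 1860.3 and 2011.3 CPM in LL. At ZT6 the sums were 2056.4, 1928.9, 1974.9 and 2185.1 CPM in SL, against 2016.7, 1854.1, 2061.8 and 2164.2 CPM in LL. Both pairs of groups overlapped, with the LL livers at ZT0 lowest as a group. At ZT12 the sums were 1979.6, 1895.6, 1964.7 and 2007.3 CPM in SL, against 2017.5, 2030.8, 2910.5 and 1894.3 CPM in LL. At ZT18 they were 2056.4, 1983.8, 1976.5 and 2153.4 CPM in SL, against 2049.6, 2029.5, 2029.0 and 2188.2 CPM in LL. One liver, LL ZT12 replicate 3, stood far above all others. Large subunit transcripts were 2.12 to 2.31 times as abundant as small subunit transcripts in CPM over all 32 libraries, that one included. In whole liver, fewer cells of a type and less RNA per cell cannot be told apart.

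**Figure D1:**
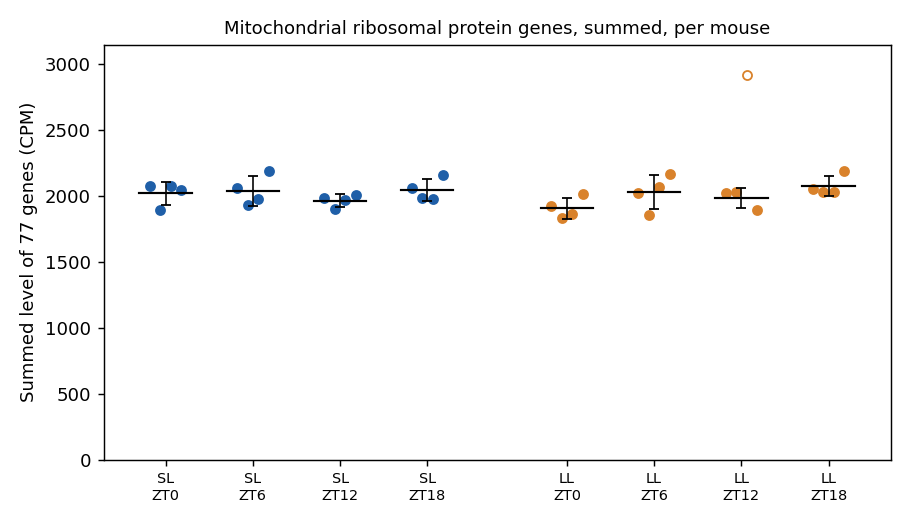
Summed level of the 77 mitochondrial ribosomal protein genes (CPM, vertical axis) in each mouse, by photoperiod and ZT; bars are group means with SD (n = 4, and n = 3 in LL ZT12, where replicate 3 is drawn open and left out of the mean). All filled points lie between 1828.1 and 2188.2 CPM, and the open point is at 2910.5 CPM.

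LL ZT12 replicate 3 touches most of what follows. Its members lay a median of 0.60 above the mean of its 3 group mates on the log2 scale, 71 of 77 above, from -0.28 for Mrpl3 to 1.59 for Mrpl52 (52.6 CPM, against 17.5 CPM on average in its mates). Over all tested genes the same median was 0.01, but it depended on gene length: other genes in the eighth with the shortest exons had a median of 0.435, and those in the longest eighth -0.358. The members were also above other genes of the same class of exon length, with a median of 0.76 in the shortest eighth. In the second longest eighth the 12 members had 0.60 and other genes -0.255. Exon length here counts all annotated exons and can far exceed the main transcript. Mrpl33, in that class, has 7326 bases of exon and a main annotated transcript of 478 bases. Members and other genes were therefore not matched for transcript length. Genes with an Nduf symbol, as for complex I subunits, stood higher still (median 0.93). So did genes with an Rpl or Rps symbol and a digit, as for cytosolic ribosomal proteins (0.83), while hepatocyte markers had -0.13. These 2 sets were taken by symbol alone, which also matches complex I assembly factor genes (Ndufaf) and kinase genes (Rps6k). Cholangiocyte markers had a median of 0.75 over the 5 tested, with a summed level of 63.7 CPM that was the highest of all 32 libraries, and sinusoidal endothelial markers had -0.37. The part of transcript length, RNA quality or other cell types in these values was not tested. Each result below is given with all libraries and without this one.

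**Figure D2:**
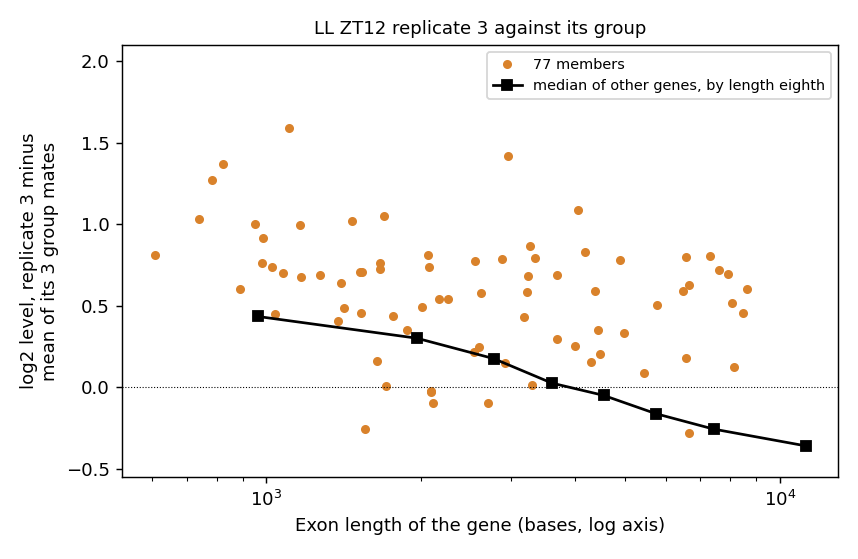
Log2 level in LL ZT12 replicate 3 minus the mean of its 3 group mates (vertical axis) against exon length (bases, log axis) for the 77 members (orange) and as medians of the other tested genes in 8 classes of length (black squares, drawn at the median length). The squares run from 0.435 for the shortest to -0.358 for the longest, whereas 71 members lie above 0.

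The design crosses photoperiod with time of day, so the first comparison tested the interaction of photoperiod with ZT, that is, whether SL minus LL depended on the time. Of 77 members, 15 were called (19.5%), against 32.7% of all tested genes, with edgeR's quasi-likelihood F-test and Benjamini-Hochberg adjustment over all genes at 0.05. Without LL ZT12 replicate 3, 17 were called (22.1%, against 38.7% of all genes), 14 of them shared with the first 15. The shared members were Mrpl2, Mrpl4, Mrpl15, Mrpl20, Mrpl32, Mrpl40 and Mrpl41 of the large subunit and Mrps5, Mrps18a, Mrps18b, Mrps18c, Mrps21, Mrps27 and Mrps31. Counted by subunit, 8 of 48 Mrpl and 7 of 29 Mrps members were called with all libraries. Mrps18a is known to sit in the large subunit despite its name, and with it moved the counts were 9 of 49 and 6 of 28. By their group means, the members called in either fit did not all follow the same course over the day. No test grouped them by course, and several are given below mouse by mouse.

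Mrpl4, whose protein lines the peptide exit tunnel, had its lowest group mean at ZT0 in SL and at ZT12 in LL, the times at which Dbp was highest. Mrpl4 (ENSMUSG00000003299) lies at chr9:21002738-21008839 on the plus strand of GRCm38. At ZT0 it had 25.2, 27.2, 24.2 and 29.7 CPM in SL, against 32.3, 32.1, 27.8 and 32.4 CPM in LL. At ZT6 the values were 28.5, 25.8, 27.4 and 30.1 CPM in SL, against 32.1, 28.2, 30.9 and 34.5 CPM in LL. The SL means were lower at both times, and the groups overlapped. At ZT12 the order turned, with 30.5, 32.9, 34.2 and 34.7 CPM in SL, against 25.4, 23.1, 35.7 and 23.2 CPM in LL. At ZT18 the livers had 31.9, 33.4, 34.2 and 33.2 CPM in SL, against 36.7, 29.1, 32.3 and 34.8 CPM in LL. At ZT12 replicate 3 lay above every SL liver and its 3 mates below every one of them, while at ZT18 the groups overlapped. Group means were 26.6 ± 2.43, 27.9 ± 1.83, 33.1 ± 1.90 and 33.2 ± 0.935 CPM (SD) over the 4 times in SL. In LL they were 31.1 ± 2.24, 31.4 ± 2.61, 26.9 ± 6.02 (23.9 ± 1.27 without replicate 3, n = 3) and 33.2 ± 3.29 CPM. The edgeR adjusted p of the interaction was 0.021 with all libraries and 5.67e-05 without replicate 3, the smallest among the members in that fit. Its SL minus LL difference at ZT12 was 0.30 (SE 0.10) on the log2 scale with all libraries (edgeR adjusted p = 0.056) and 0.47 (SE 0.08) without replicate 3 (edgeR adjusted p = 0.000238).

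Mrpl36, a small zinc-binding protein of the large subunit, had the widest spread of group means of all members without that library, 0.51 between the highest and the lowest on the log2 scale. Mrpl36 (ENSMUSG00000021607) lies at chr13:73328513-73332178 on the plus strand of GRCm38. At ZT0 it stood at 17.2, 18.8, 19.9 and 20.5 CPM in SL, against 25.3, 19.6, 20.6 and 25.5 CPM in LL. Its ZT12 values were 21.2, 21.1, 21.3 and 22.9 CPM in SL, against 17.4, 16.8, 31.8 and 13.7 CPM in LL. As with Mrpl4, replicate 3 was above and its 3 mates below all SL livers at ZT12. At ZT6 the livers had 20.5, 17.3, 18.7 and 21.3 CPM in SL, against 20.7, 17.99, 20.6 and 20.6 CPM in LL, and at ZT18 21.3, 22.1, 21.5 and 24.3 CPM in SL, against 20.6, 20.8, 19.9 and 22.4 CPM in LL. These groups overlapped. With all libraries the interaction was not called (edgeR adjusted p = 0.433), and without replicate 3 it was (0.000858 in the same test). The ZT12 difference was 0.12 (SE 0.15) with all libraries (edgeR adjusted p = 0.669), against 0.45 (SE 0.10) without it (edgeR adjusted p = 0.00202), so that 1 library decides this call. Mrpl36 shares 30 bases of exon with Ndufs6 on the opposite strand.

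Mrps21, the counterpart of a bacterial small subunit protein, followed another course. Mrps21 (ENSMUSG00000054312) lies at chr3:95862634-95871519 on the minus strand of GRCm38. At ZT0 the livers had 18.9, 16.1, 20.7 and 20.6 CPM in SL, against 17.7, 18.5, 19.2 and 20.6 CPM in LL, with overlap. By ZT6 they had 23.5, 21.5, 23.03 and 23.1 CPM in SL, against 18.5, 17.1, 19.2 and 19.97 CPM in LL, all SL livers higher. By ZT12 the values were 18.4, 16.6, 21.6 and 17.97 CPM in SL, against 21.7, 22.3, 45.2 and 22.3 CPM in LL, and at ZT18 18.2, 17.6, 17.2 and 20.1 CPM in SL, against 23.3, 20.5, 22.8 and 22.1 CPM in LL. At both of these times every SL liver was below every LL liver. The interaction was called with all libraries (edgeR adjusted p = 0.0103) and without replicate 3 (0.000276 in the same test). At ZT12 it fell in SL relative to LL by 0.58 (log2, SE 0.15, edgeR adjusted p = 0.00851); without replicate 3, which had 45.2 CPM, the value was -0.24 (SE 0.08) with edgeR adjusted p = 0.0621. Without replicate 3 it was instead called higher in SL at ZT6, by 0.30 (SE 0.08), and lower at ZT18, at -0.29 (SE 0.08), with edgeR adjusted p = 0.0057 and 0.0121.

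Mrpl15, another protein of bacterial descent in the large subunit, differed most at ZT18. Mrpl15 (ENSMUSG00000033845) lies at chr1:4773206-4785739 on the minus strand of GRCm38. At ZT18 it had 54.95, 50.5, 53.5 and 51.2 CPM in SL, against 73.7, 66.9, 60.9 and 63.97 CPM in LL, with no overlap. At ZT0 it had 60.8, 52, 53.9 and 58.2 CPM in SL, against 54.4, 54.2, 54.03 and 52.5 CPM in LL. At ZT6 the values were 65.5, 60.7, 54.9 and 68.9 CPM in SL, against 54.6, 45.7, 60.4 and 60.2 CPM in LL. The groups overlapped at both, and likewise at ZT12, with 63.4, 59.4, 59.6 and 57.9 CPM in SL, against 66.5, 57.5, 83.5 and 58.5 CPM in LL. At ZT18 the transcript was lower in SL, at -0.34 (SE 0.10) with all libraries and -0.35 (SE 0.08) without replicate 3, a call in both fits (edgeR adjusted p = 0.0241 and 0.00267). Its interaction had edgeR adjusted p = 0.0166 with all libraries and 0.0017 without.

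Mrpl41, a protein of the large subunit with no bacterial counterpart, had the smallest interaction p of the members with all libraries (edgeR adjusted p = 0.00408, and 0.0117 without replicate 3). Mrpl41 (ENSMUSG00000036850) lies at chr2:24974117-24975098 on the minus strand of GRCm38. At ZT12 it had 15.3, 15.1, 15.8 and 14.1 CPM in SL, against 21.6, 18.9, 29.4 and 17.8 CPM in LL, all SL livers lower. At ZT0 it had 20.6, 18.2, 19.02 and 19.1 CPM in SL, against 14.7, 14.4, 15.5 and 19.8 CPM in LL. The groups at ZT0 overlapped through a single LL liver at 19.8 CPM. At ZT6 the values were 17.3, 15.9, 16.7 and 19.1 CPM in SL, against 17.01, 14.2, 18.9 and 19.2 CPM in LL, and at ZT18 16.6, 17.5, 16.5 and 19.6 CPM in SL, against 15.3, 14.7, 16.1 and 19.02 CPM in LL, both with overlap. The ZT12 fall in SL relative to LL was called in both fits, at -0.54 (SE 0.13) with all libraries and -0.36 (SE 0.11) without replicate 3 (edgeR adjusted p = 0.00368 and 0.0318).

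Mrps18a, Mrps18b and Mrps18c are 3 paralogs descended from a single bacterial gene, and their products hold different places in the mitoribosome. Mrps18a (ENSMUSG00000023967) lies at chr17:46110986-46128910 on the plus strand of GRCm38. Mrps18b (ENSMUSG00000024436) lies at chr17:35910379-35916389 on the minus strand of GRCm38. Mrps18c (ENSMUSG00000016833) lies at chr5:100798627-100804471 on the plus strand of GRCm38. All 3 were called in the interaction with all libraries (edgeR adjusted p = 0.0202 for Mrps18a, 0.00547 for Mrps18b and 0.0316 for Mrps18c) and without replicate 3 (0.00887, 0.00678 and 0.041 in the same order and test). Mrps18a, of the large subunit, had 33.3, 34.6, 31.4 and 28.5 CPM in SL, against 27.5, 25.3, 27.4 and 25.3 CPM in LL at ZT0, where every SL liver was higher. Mrps18a was called higher in SL at ZT0 by 0.28 (SE 0.09) with all libraries and 0.28 (SE 0.08) without replicate 3 (edgeR adjusted p = 0.0319 and 0.0108), and Mrps18c was called at ZT12, lower in SL, with all libraries alone. At ZT12 Mrps18b had 12.1, 13.9, 12.6 and 13.4 CPM in SL, against 16.7, 16.3, 15.5 and 14.6 CPM in LL, all SL livers lower. At ZT18 it had 17.6, 16.9, 14.8 and 16 CPM in SL, against 14.2, 14.4, 12.01 and 14.7 CPM in LL, where the lowest SL liver and the highest LL liver were almost level. Its values at ZT0 were 19, 14.5, 16.8 and 13.6 CPM in SL, against 14.1, 14.6, 10.4 and 14.9 CPM in LL, and at ZT6 14.97, 13.3, 12.5 and 16.5 CPM in SL, against 15.9, 17.4, 17.1 and 16.5 CPM in LL. Both of these pairs overlapped, and no single time was called for Mrps18b in either fit, with differences of 0.24 (SE 0.11), -0.23 (SE 0.10), -0.28 (SE 0.11) and 0.24 (SE 0.11) over the 4 times with all libraries. Mrps18b shares 638 bases of exon with Gm16279 on the opposite strand and Mrps18c 250 bases with Gm43511 on its own strand, so reads of these could be shared.

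**Figure D3:**
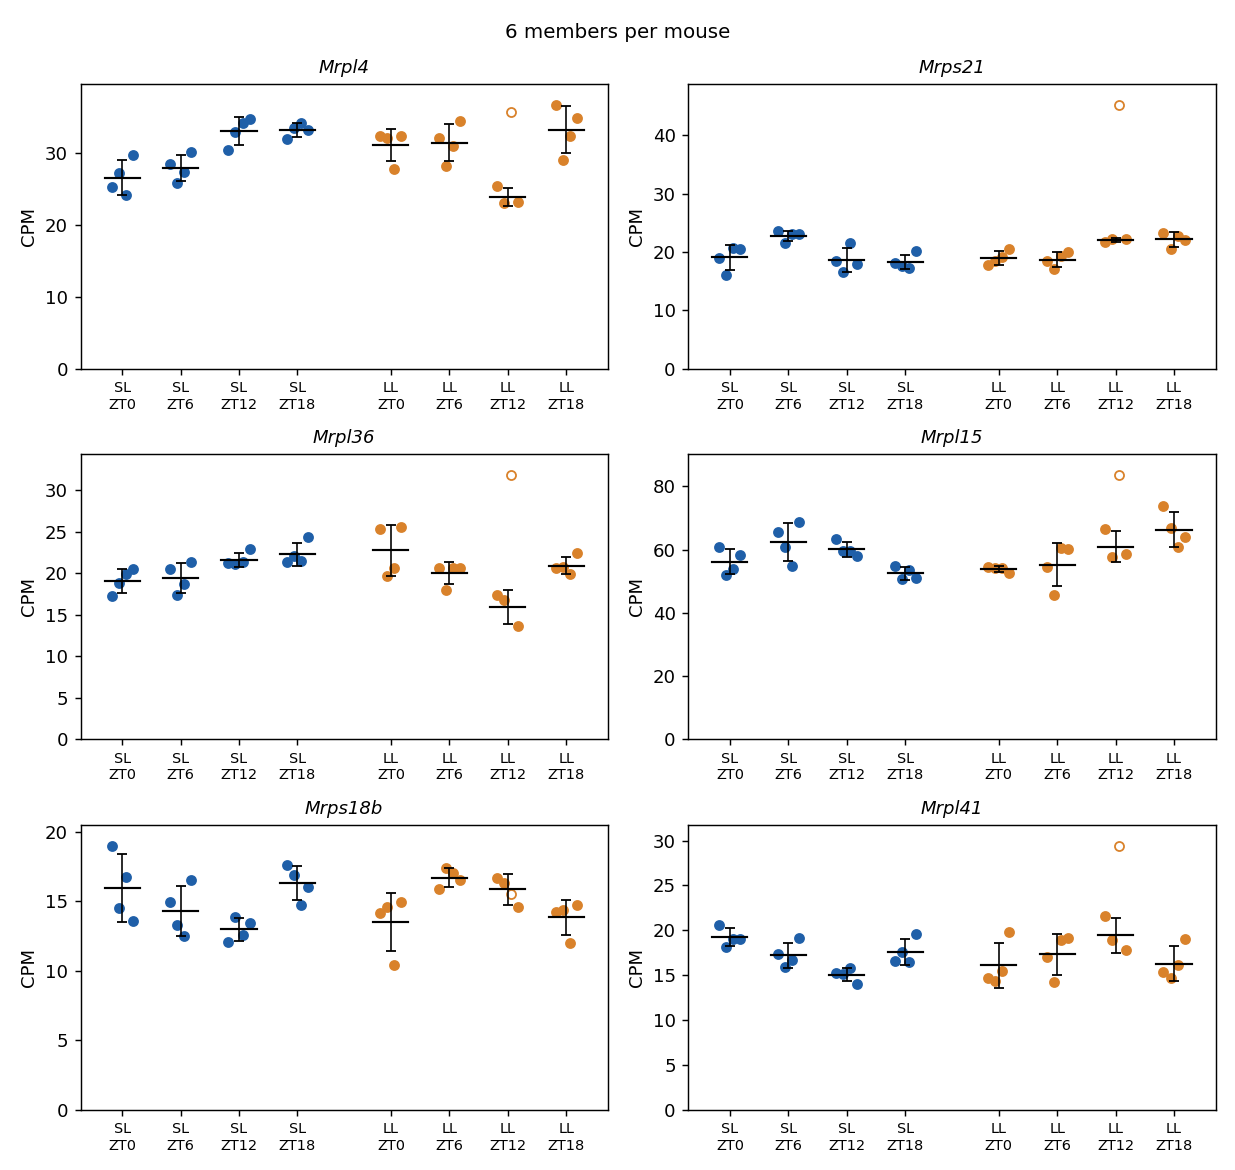
CPM (vertical axes, each from 0) of Mrpl4, Mrpl36, Mrps18b, Mrps21, Mrpl15 and Mrpl41 in each mouse by photoperiod and ZT; bars are means with SD, and LL ZT12 replicate 3 is drawn open and left out of the mean. Mrpl4 and Mrpl36 are lowest at LL ZT12 in the filled points (23.9 and 15.9 CPM on average), where Mrpl41 is highest (19.4 CPM).

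The 24 h waves of these members were shallow. Over the 77 members the median log2 amplitude was 0.07 in SL and 0.13 in LL with all libraries, and 0.07 in SL and 0.09 in LL without replicate 3, against 0.15 in SL and 0.16 in LL with all libraries and 0.15 in both without it over all tested genes. Members and all genes were not matched for level or for spread within groups. Without replicate 3 the median SD within groups was 0.12 for members and 0.19 for all tested genes. The largest amplitudes of members without replicate 3 were 0.20 in SL, for Mrpl4, and 0.26 in LL, for Mrpl36. In that fit the peak of Mrpl4 lay at 14.4 h (SL) and 23.1 h (LL), and that of Mrpl36 at 14.9 h (SL) and 23.4 h (LL), close to the Arntl peaks. Mrpl41 peaked at 23.9 h (SL) and 10.9 h (LL), near the Dbp peaks, and Mrps21 at 5.67 h (SL) and 15.3 h (LL). The SL minus LL difference in peak time was -8.7 h for Mrpl4, -8.5 h for Mrpl36, -9.63 h for Mrps21 and -10.6 h for Mrps18b. With 4 times 6 h apart such peaks are rough. With LL taken 12 h later, so that SL ZT0 was set against LL ZT12 and so on, 0 of 77 members were called in the interaction, against 0.519% of all tested genes; 2 had an unadjusted p under 0.05 by edgeR.

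**Figure D4:**
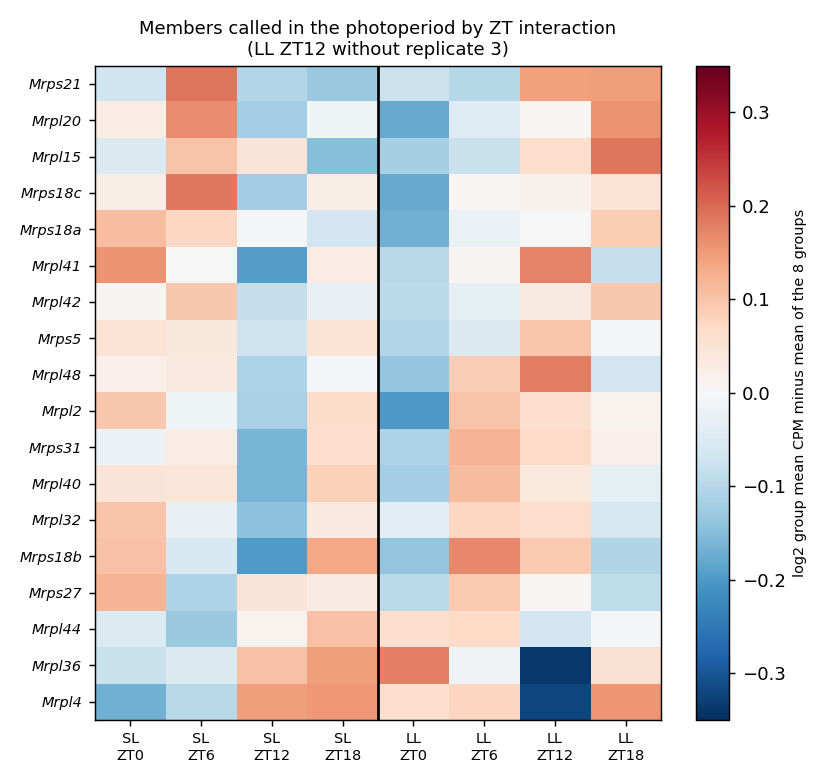
Log2 group mean CPM minus the mean of the 8 groups (colour, red higher) for the 18 members called in the photoperiod by ZT interaction in either fit, SL groups left of LL groups, LL ZT12 without replicate 3. Values run from -0.34 to 0.19. Mrpl4 and Mrpl36 at the foot are lowest at LL ZT12 (-0.32 and -0.34).

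Promoters are shown for some of the members with the smallest interaction p that have one in the RefSeq table (GRCm38.p6). Of these, 4 come from the fit with all libraries and Mrpl36 from the fit without replicate 3. With all libraries Mrpl36 was not called in the interaction. Of the 77 members 68 were matched, and the others are Mrpl4, Mrpl13, Mrpl15, Mrpl19, Mrpl38, Mrpl54, Mrps28, Mrps34 and Mrps35. Each sequence runs from 250 bases before to 30 after the annotated start, with capitals at matches to 5 motifs searched on both strands: GCGCANGCG for NRF1 and CCGGAAG for ETS factors such as GABPA (both known to drive nuclear genes for mitochondrial proteins), AANATGGCG for YY1, and the clock motifs CACGTG (E-box) and TTATGNAA (D-box).
Mrpl41: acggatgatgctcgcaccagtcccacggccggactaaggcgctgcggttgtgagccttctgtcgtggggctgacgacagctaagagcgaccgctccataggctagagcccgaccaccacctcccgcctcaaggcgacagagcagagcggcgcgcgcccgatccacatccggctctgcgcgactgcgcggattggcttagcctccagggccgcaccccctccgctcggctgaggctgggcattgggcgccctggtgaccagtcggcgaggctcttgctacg
Mrps18b: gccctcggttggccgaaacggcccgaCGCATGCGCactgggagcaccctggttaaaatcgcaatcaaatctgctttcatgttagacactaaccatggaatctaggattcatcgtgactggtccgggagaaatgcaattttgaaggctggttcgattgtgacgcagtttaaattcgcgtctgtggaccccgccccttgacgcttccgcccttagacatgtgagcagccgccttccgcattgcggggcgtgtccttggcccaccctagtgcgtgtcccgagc
Mrps21: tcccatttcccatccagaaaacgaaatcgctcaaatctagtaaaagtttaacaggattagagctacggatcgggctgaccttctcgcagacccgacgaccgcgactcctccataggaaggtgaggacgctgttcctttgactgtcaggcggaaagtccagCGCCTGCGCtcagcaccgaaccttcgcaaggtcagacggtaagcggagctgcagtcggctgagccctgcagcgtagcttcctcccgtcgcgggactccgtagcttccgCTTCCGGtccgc
Mrpl2: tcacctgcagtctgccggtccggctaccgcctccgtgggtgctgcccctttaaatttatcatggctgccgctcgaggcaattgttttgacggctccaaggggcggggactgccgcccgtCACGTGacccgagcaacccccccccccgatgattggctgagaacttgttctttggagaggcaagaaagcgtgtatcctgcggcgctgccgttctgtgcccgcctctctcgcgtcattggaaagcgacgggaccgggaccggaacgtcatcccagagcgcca
Mrpl36: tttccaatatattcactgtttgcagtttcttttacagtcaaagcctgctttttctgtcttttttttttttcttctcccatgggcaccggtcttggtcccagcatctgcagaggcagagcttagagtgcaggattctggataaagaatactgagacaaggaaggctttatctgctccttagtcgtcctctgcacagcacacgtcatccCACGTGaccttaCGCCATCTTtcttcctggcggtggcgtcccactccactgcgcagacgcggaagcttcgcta
These lie at chr2:24975069-24975348 on the minus strand, chr17:35916411-35916690 on the minus strand, chr3:95871485-95871764 on the minus strand, chr17:46645971-46646250 on the plus strand and chr13:73330759-73331038 on the plus strand, in the order shown. Starts here are those of RefSeq, whereas the gene bounds given above are those of GENCODE, and the 2 sources differ for some genes. The Mrps18b window lies wholly outside the GENCODE bounds of Mrps18b, and the Mrpl36 window wholly inside those of Mrpl36. Mrps18b and Mrps21 hold an NRF1 match and Mrps21 also an ETS match just after the RefSeq start. Mrpl2 holds an E-box 131 bases before its RefSeq start, and Mrpl36 an E-box and a YY1 match 43 and 31 bases before its own. Mrpl41, whose interaction p was the smallest, holds none of the 5 in this window. Over the 74 promoters of the 68 members, in windows of 300 bases, the NRF1 motif was found in 21.6%, the ETS motif in 33.8% and the YY1 motif in 14.9%, against 6.25, 8.86 and 2.38% of all 32851 promoters. The clock motifs were found in 9.46% (E-box) and 1.35% (D-box) of member promoters, against 7.15 and 3.38% of all promoters. The members with an E-box were Mrpl2, Mrpl20, Mrpl36, Mrpl37 and Mrps18c, and the one with a D-box was Mrps31. The 32851 promoters were not limited to genes expressed in these livers, whereas all members passed the filter on low counts. Whether other expressed genes hold these motifs as often was not tested. These are matches of letters and were not tested for binding.

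Time by time, differences between SL and LL were small and few passed the test. At ZT0, Mrps18a was the 1 member called with all libraries, higher in SL, and none was lower; of all tested genes 6.07% were called higher and 4.97% lower. Without LL ZT12 replicate 3, 4 members were called higher and 1 lower, against 8.76% and 6.66% of all genes. Higher in SL were Mrps18a, Mrpl27 (by 0.30 (SE 0.09) on the log2 scale), Mrpl2 (by 0.29 (SE 0.09)) and the stalk gene Mrpl12 (by 0.27 (SE 0.09)), and Mrpl4 was lower, at -0.23 (SE 0.08). Their edgeR adjusted p was 0.0215 for Mrpl27, 0.0263 for Mrpl2, 0.0473 for Mrpl12 and 0.0427 for Mrpl4. In the mice, Mrpl12 had 106, 87.8, 106 and 99.7 CPM in SL, against 84.9, 78.7, 75.1 and 92.4 CPM in LL at ZT0, and Mrpl2 39.5, 35.4, 36.1 and 35.9 CPM in SL, against 29.3, 31.8, 28 and 30.6 CPM in LL. For Mrpl2 all SL livers were higher, whereas for Mrpl12 the groups overlapped. Most members leaned the same way at this time. With all libraries 60 of 77 were higher in SL, with a median log2 difference of 0.09, against -0.002 over all genes, and without replicate 3 the count was 61, with a median of 0.10. The median SE per member was 0.12 with all libraries and 0.09 without. Members varied together between livers of a group, with a median correlation of 0.49 with the sum of the others without replicate 3. Such counts, here and at the other times, are therefore not counts of independent genes. The summed levels of SL and LL livers overlapped at ZT0.

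At ZT6 no member was called with all libraries, while 6.9% of all tested genes were called higher in SL and 8.38% lower. By edgeR 4 members had an unadjusted p under 0.05, and DESeq2 and limma also called 0. The smallest p belonged to Mrpl44, whose protein carries a ribonuclease-like fold, with -0.20 (SE 0.07) and edgeR adjusted p = 0.0621, then Mrps27 with -0.20 (SE 0.08) (0.0918) and Mrps22 with -0.23 (SE 0.10) (0.118). Without replicate 3 Mrps21 was called higher, against 10.7% of all genes called higher and 10.2% lower. The median over the members was -0.01 with all libraries and 0.005 without.

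At ZT12, 11 members were called with all libraries, 1 higher in SL and 10 lower of 77, against 6.05% of all tested genes called higher and 6.4% lower. Lower were Mrpl41, Mrps21, Mrps31, Mrpl40, Mrpl32, Mrpl51, Mrpl48, Mrpl2, Mrps5 and Mrps18c, from -0.58 (SE 0.15) for Mrps21 to -0.22 (SE 0.07) for Mrps5. The member that was higher, Mrpl3, codes for a protein close to the catalytic centre, and had 24.5, 22.7, 23.7 and 22.8 CPM in SL, against 19.02, 20.9, 16.7 and 20.8 CPM in LL, every SL liver higher. Of the 77 members 11 were above 0, with a median of -0.22, against -0.007 over all genes. Without replicate 3 the median was -0.03, with 30 of 77 above 0, and 3 members were called higher and 2 lower, against 5.6% and 5.9% of all genes. Mrpl41, Mrps31 and Mrpl3 were called in both fits, and Mrpl4 and Mrpl36 only without replicate 3, both higher in SL. Mrps31, a protein added to the small subunit in mitochondria, had 30.6, 29.9, 29.4 and 30.9 CPM in SL, against 34.8, 36.1, 35.7 and 35.2 CPM in LL at ZT12, all SL livers lower, and its difference was -0.23 (SE 0.07) with all libraries and -0.23 (SE 0.07) without (edgeR adjusted p = 0.0191 and 0.028). For Mrpl3 the difference was 0.28 (SE 0.08) with all libraries and 0.21 (SE 0.07) without (edgeR adjusted p = 0.0141 and 0.0457).

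Some markers of other liver cells differed in the same comparison, and for Sox9 and Stab2 the order was clearly the reverse at ZT0. Of 7 sinusoidal endothelial markers 3 were called higher in SL at ZT12 with all libraries, Stab2 by 0.41 (SE 0.09), Oit3 by 0.34 (SE 0.10) and Lyve1 by 0.74 (SE 0.24), with edgeR adjusted p = 0.00158, 0.0263 and 0.0442, and Stab2 alone without replicate 3. The Kupffer cell marker Clec4f, 1 of 9, was called higher with all libraries by 0.40 (SE 0.13), and the cholangiocyte marker Sox9, 1 of 5 tested, by 1.42 (SE 0.23). Sox9 was called without replicate 3 as well. At ZT0 these named markers all had lower means in SL. Sox9 averaged 3.04 CPM in SL, against 10.9 CPM in LL, and Stab2 101 CPM, against 134 CPM. Oit3 had 26.4 ± 2.38 and 27.3 ± 2.45 CPM (SD), Lyve1 6.1 ± 2.58 and 7.31 ± 0.678 CPM, and Clec4f 106 ± 26 and 112 ± 19 CPM, in the same order. For these 3 the ZT0 means differed by less than the larger SD. Not every marker turned: the stellate cell marker Lrat averaged 17.3 CPM in SL, against 11.97 CPM in LL at ZT0. At ZT12 it had 16.3 CPM in SL, against 11.7 CPM in LL. Summed levels of sinusoidal endothelial markers at ZT12 were 386 to 443 CPM in SL and 290 to 398 CPM in LL. For Kupffer cell markers they were 351 to 403 CPM in SL and 275 to 336 CPM in LL. Cholangiocyte markers had 41 to 47.2 CPM in SL and 37 to 63.7 CPM in LL. Replicate 3 was the LL liver at 290 CPM and at 63.7 CPM, and had 288 CPM for Kupffer cell markers. The 8 hepatocyte markers had a median difference of 0.07 with all libraries and -0.01 without replicate 3. The part of these markers in the members' values was not tested.

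At ZT18, Mrpl15 was the 1 member called with all libraries, lower in SL, against 4.39% of all tested genes called lower and 4.82% higher. Without replicate 3 Mrps21 was called lower too, against 7.24% of all genes called lower and 6.31% higher. The median over the members was -0.01 with all libraries and -0.02 without. Skeletal muscle markers, summed, had 0.734 to 37.2 CPM in SL and 12.4 to 232 CPM in LL at ZT18. Of the 8, Myh4 was called lower in SL with all libraries (-4.38, SE 1.1, edgeR adjusted p = 0.0082), and Myh4 and Mylpf without replicate 3. Their part in the calls of Mrpl15 and Mrps21 was not tested.

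**Figure D5:**
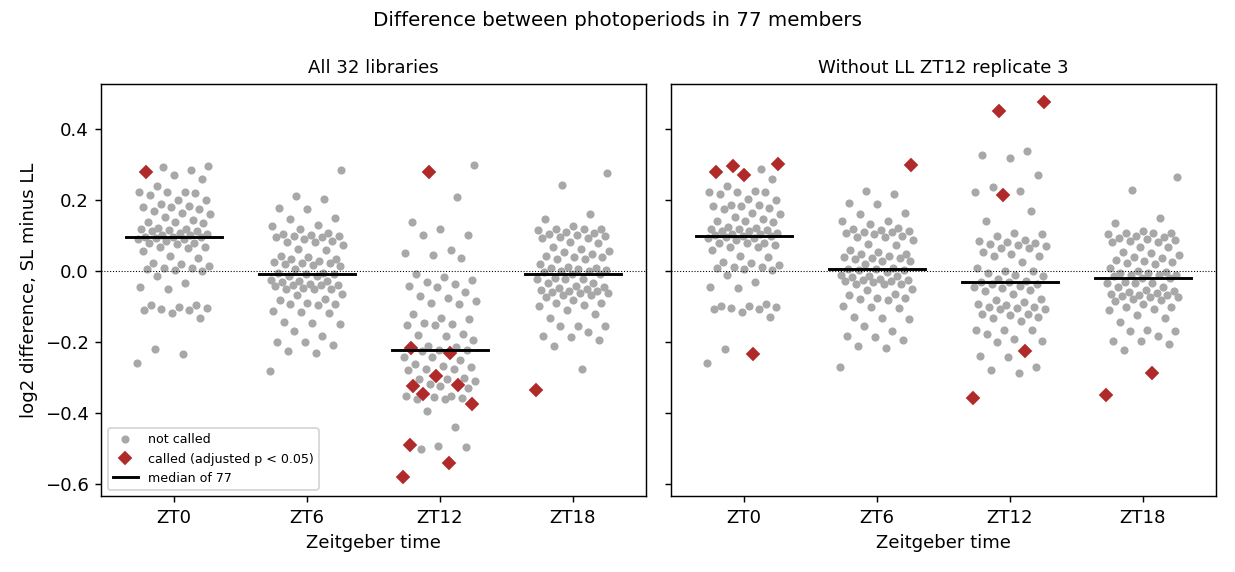
Log2 difference, SL minus LL (vertical axis), of each of the 77 members at ZT0, 6, 12 and 18, with all 32 libraries (left) and without LL ZT12 replicate 3 (right); red diamonds passed the adjusted threshold and black lines are medians. The median at ZT12 is -0.22 on the left and -0.03 on the right, whereas at ZT0 it is 0.09 and 0.10.

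Averaged over the 4 times, 0 of 77 members were called by edgeR's test, with all libraries and without replicate 3, while the count over all tested genes was 0 (0.0%) and 3 (0.0205%). At an unadjusted p under 0.05 there were 2 members with all libraries and 3 without, and DESeq2 and limma with all libraries also called 0. The smallest p was that of Mrpl3 at 0.09 (SE 0.04), followed by Mrps25 at -0.15 (SE 0.07) and Mrpl18 at -0.11 (SE 0.05), with edgeR adjusted p = 0.958, 0.985 and 0.987. The 95% interval of the difference lay within 0.5 on the log2 scale for 76 of 77 members with all libraries and for 77 without replicate 3.

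Within SL, time of day changed few members. With all libraries the 1 called member was Mrpl4 (edgeR adjusted p = 0.0369), against 19.1% of all tested genes. Without replicate 3 there were 5, against 26.9% of all genes: Mrpl4 (0.0022), Mrps21 (0.00478), Mrps18c (0.0236), Mrps31 (0.0402) and Mrpl15 (0.047), all by edgeR adjusted p. Mrps18c averaged 15.5 ± 0.652, 17.3 ± 1.91, 14.02 ± 1.05 and 15.5 ± 1.13 CPM over the 4 times in SL. Counted by the time at which each member was lowest in SL, 39 of 77 had their lowest group mean at ZT12 with all libraries and 38 without.

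Within LL, 8 members were called with all libraries, against 18.3% of all tested genes: Mrps21, Mrpl3, Mrpl24, Mrpl41, Mrpl15, Mrpl2, Mrpl48 and Mrps5, with edgeR adjusted p between 0.012 and 0.0474. Without replicate 3, 8 were called again, against 21.2% of all genes, but 3 of them were shared, Mrps21, Mrpl15 and Mrpl24. Mrpl4 (edgeR adjusted p = 0.000573) and Mrpl36 (0.00167) then led, with Mrpl20 (0.0243), Mrps31 (0.0479) and Mrps6. With all libraries 55 of 77 members had their highest LL group mean at ZT12, and without it 11 did, with 40 highest at ZT18. In LL 57 of 77 had their lowest group mean at ZT0 with all libraries and 45 without. The summed level of 8 skeletal muscle markers in LL livers was 0.73 to 115 CPM at ZT0, 0.64 to 27.6 at ZT6, 0.87 to 1.58 at ZT12 and 12.4 to 232 at ZT18. In SL livers it was 0.908 to 20 CPM at ZT0, 0.588 to 0.912 at ZT6, 0.604 to 1.09 at ZT12 and 0.734 to 37.2 at ZT18. All 8 were called for time of day in LL in both fits, and their part in the members' values was not tested.

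Without replicate 3 the highest and the lowest group mean of a member differed by a median of 0.23 on the log2 scale, from 0.08 for Mrpl9 to 0.51 for Mrpl36, against a median of 0.41 over all tested genes. The SD within groups had a median of 0.12, against 0.19 over all genes. Without replicate 3 the correlation of a member with the sum of the other members, after taking out group means, had a median of 0.49 over 31 libraries, with 75 of 77 above 0, against -0.01 for other genes with the same sum. These points share the depth and the scaling of each library.

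The other genes of mitochondrial translation, taken from lists of known function, gave the following counts in the interaction, where 32.7% of all tested genes were called with all libraries and 38.7% without replicate 3. Of the 5 tested mitoribosome proteins without an Mrp symbol, none was called in the interaction with all libraries. Without replicate 3 Ptcd3, a small subunit protein with RNA-binding repeats, was called in the interaction (edgeR adjusted p = 0.000619), higher in SL at ZT6 by 0.23 (SE 0.06) and lower at ZT12, at -0.24 (SE 0.06). Of 23 assembly and ribosomal RNA modification genes 4 were called in the interaction in either fit, among them the helicase gene Ddx28 (edgeR adjusted p = 0.00716 with all libraries and 0.00897 without), lower in SL at ZT0 at -0.38 (SE 0.11) with all libraries. Translation factors gave 4 of 16 with all libraries and 6 without, among them without replicate 3 Lrpprc, a stabiliser of mitochondrial messenger RNA (edgeR adjusted p = 0.000165, and 0.182 with all libraries). Aminoacyl-tRNA synthetases gave 5 of 17 in both fits, among them Cars2 (edgeR adjusted p = 0.000252 with all libraries), which at ZT12 was higher in SL by 0.42 (SE 0.10).

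The ribosomal RNAs of the mitoribosome itself, mt-Rnr1 and mt-Rnr2, were both called in the interaction, with edgeR adjusted p = 0.0056 and 0.00808 with all libraries and 0.000148 and 0.00179 without replicate 3. At ZT6 mt-Rnr1 averaged 266 ± 33.1 CPM in SL, against 195 ± 13.3 CPM in LL, and at ZT18 190 ± 23 CPM in SL, against 265 ± 35.4 CPM in LL. At these times mt-Rnr1 passed the edgeR test without replicate 3 (adjusted p = 0.00337 and 0.00336) and not with all libraries (0.0592 and 0.0623). These RNAs are seen here after selection for poly(A) tails, and their level in total RNA was not measured. Larger differences were found among genes that act beside the mitoribosome. Mterf2, a mitochondrial transcription termination factor gene, differed by 1.28 at ZT0 and -1.33 at ZT12 (log2, SE 0.18 each) with all libraries, and Clpx, the chaperone subunit of a matrix protease, by -2.45 and 2.58 (SE 0.18 each). Clpx averaged 105 ± 12.3 CPM in SL at ZT0, against 573 ± 46.3 CPM in LL, and 505 ± 38.9 CPM in SL at ZT12, against 84.6 ± 12.6 CPM in LL. Of 9 regulators of mitochondrial gene programmes 6 were called in the interaction with all libraries and 7 without, among them the coactivator gene Ppargc1b, higher in SL at ZT0 by 1.64 (SE 0.25) and lower at ZT12, at -0.79 (SE 0.24). Genes with an Rpl or Rps symbol and a digit, 89 in all, gave 1 call in the interaction with all libraries and 4 without. This pattern takes the cytosolic ribosomal protein genes, but also matches kinase genes named Rps6k. Genes with an Nduf symbol, 46 in all, gave 4 and 18. The share of all tested genes called in the interaction was 32.7% with all libraries and 38.7% without replicate 3. Of the remaining lists, mitochondrial transcription and DNA maintenance gave 4 of 10 genes with all libraries and 5 without, mitochondrially encoded transcripts 2 of 9 and 3, and the mitochondrial stress response 6 of 13 and 9.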

How the data were processed

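Liver RNA of 32 mice was sequenced as stranded, poly(A)-selected libraries, per the labels' protocols. The submitters' processing notes list bcl2fastq 2.20.0, STAR 2.7.2b, featureCounts 1.6.2 and the build GRCm38 (mm10). The sources used here do not give the strand setting, multi-mapping rule or annotation behind the counts; 27 members share exon bases with a gene on the opposite strand and 7 with one on their own. The authors deposited raw counts of reads for each gene. The authors also deposited log2 values, tested with limma as an alternative; over 13432 genes they lay within 0.0794 (median 0.0213) of unscaled log2 CPM.

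Counts were scaled by trimmed mean of M values and filtered with filterByExpr by group. In R 4.3.3, edgeR 4.0.16 fitted 1 mean per group to the 32 libraries, and quasi-likelihood F-tests gave 8 comparisons, with Benjamini-Hochberg adjustment over all 14456 genes (14620 without LL ZT12 replicate 3) and a threshold of 0.05. CPM are scaled by these factors, the prior count of log2 CPM was 2, and SE is the log2 difference divided by the root of F. Alternatives used DESeq2 1.42.0, limma 3.58.1, other filters and scalings, fewer groups, a replicate block, LL moved by 12 h, and each library left out. The method was tested on simulated counts. Gene bounds and exon lengths came from GENCODE M21 on GRCm38 and promoters from RefSeq (GRCm38.p6).

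Named members were, per comparison, up to 6 called in each direction with the smallest p (up to 8 for time and interaction tests, and the 3 smallest where under 3 were called), the 3 highest and lowest per kb, the Mrps18 paralogs and Mrps36. The members, gene lists and rules were chosen with earlier results of these data known. Depths of 9095615 to 27462776 reads limit precision for members of few CPM. Among the 48 pairs of libraries of a group none agreed within counting noise, the smallest chi-square per degree of freedom being 5.72. Every library is labelled as a sample of its own, so p-values measure the spread between these samples.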

Additional observations from a re-analysis of the deposited data

Results flagged for a closer look

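In groups of 4 mice, a highest or lowest mouse was marked when its gap to the next took more of the group's range than Dixon's 95% critical value for 4 samples. This held in 22 of 264 groups, over the summed level and 32 members named; chance marks about 1 in 20 groups. LL ZT12 replicate 3 was the marked mouse in 10 of them. It had a summed level of 2910.5 CPM, Mrps21 at 45.2 CPM, Mrpl24 at 56.5, Mrps5 at 37.2, Mrps22 at 19.6, Mrpl51 at 86.7, Mrpl18 at 65.0, Mrpl20 at 53.3, Mrpl27 at 25.7 and Mrpl14 at 76.4 CPM.

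The other 12 were in other mice. Summed levels stood apart in SL ZT0 replicate 2 (1889.6 CPM, low) and LL ZT18 replicate 4 (2188.2 CPM, high). In SL ZT12 replicate 4, Mrpl12 had 95.4 CPM, Mrps22 18.6 and Mrpl36 22.9 CPM. Mrpl2 had 40.1 CPM in SL ZT6 replicate 4, Mrps5 34.4 CPM in SL ZT18 replicate 1, and Mrpl1 34.1 CPM in SL ZT0 replicate 1. In LL, Mrpl4 had 27.8 CPM in ZT0 replicate 3, Mrpl18 44.3 CPM in ZT0 replicate 2, Mrpl36 18.0 CPM in ZT6 replicate 2 and Mrps22 13.2 CPM in ZT18 replicate 1.

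For 15 of 77 members (19.5%) the SL minus LL difference depended on the time of day, against 32.7% of all tested genes (edgeR interaction test with all libraries). Adjusted p was 0.00408 for Mrpl41, 0.00547 for Mrps18b, 0.0103 for Mrps21, 0.0166 for Mrpl15, 0.0188 for Mrpl2, 0.019 for Mrps5, 0.0197 for Mrpl40 and 0.0202 for Mrps18a. It was 0.021 for Mrpl4, 0.0227 for Mrpl32, 0.0241 for Mrpl20, 0.0262 for Mrps27, 0.0295 for Mrps31, 0.0316 for Mrps18c and 0.0477 for Mrpl48.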

How the results depend on the processing

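With no filter on low counts the counts of called members were 0 for time of day in SL, 6 for the interaction, 0 at ZT0 and 4 at ZT12. Fitting only the groups compared gave 4 for SL, 0 for LL, 2 at ZT0, 1 at ZT6, 0 at ZT12 and 2 at ZT18. limma on the deposited log2 values gave 5 for LL, and LL taken 12 h later gave 0 for the interaction. The cause was not tested. The results above give the share of all genes called with and without LL ZT12 replicate 3 and for LL taken 12 h later. For the other fits no such share is given, so their counts cannot show whether the members or all genes moved. DESeq2, its size factors, the other trimmed mean scaling and the stricter filter kept every count within 1.5 times. For the 38 member results named from the fit with all libraries, each followed through the alternatives run for it and the fit without LL ZT12 replicate 3, 289 values kept their side of the threshold, 48 lost a call, 2 gained one and 0 reversed. Calls gained by members named only without that library are not in this tally and stand in the results above. Of the 48 lost calls, 8 came from LL taken 12 h later, which is another comparison on the same fit and not other processing.

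Leaving out each library gave 0 to 5 for SL, 4 to 21 for LL, 10 to 24 for the interaction, 0 to 5 at ZT0, 0 to 1 at ZT6, 4 to 27 at ZT12, 0 to 2 at ZT18 and 0 to 0 over the mean of the times. These are counts of members, and the number of all genes called in each such fit is not given beside them. Besides LL ZT12 replicate 3, LL ZT12 replicate 4 moved counts most (21 for LL, 24 for the interaction and 27 at ZT12 without it). At ZT12, leaving out LL replicate 1 gave 18 and replicate 2 gave 17, and leaving out SL replicates 1 to 4 gave 7, 5, 4 and 7. For LL, 13 were called without LL ZT12 replicate 2, 4 without LL ZT0 replicate 1 or LL ZT18 replicate 1, and 5 without LL ZT0 replicate 2, LL ZT18 replicate 3 or SL ZT6 replicate 2. Mrpl4 in SL lost its call without SL ZT0 replicate 3, SL ZT6 replicate 2, SL ZT12 replicates 2, 3 or 4, or SL ZT18 replicates 2 or 4. SL counts were 2 without SL ZT0 replicate 4, SL ZT6 replicates 3 or 4, or LL ZT0 replicate 3, and the ZT6 count was 1 without SL ZT6 replicate 3. Mrps18a at ZT0 lost it without SL ZT0 replicates 1 or 3, SL ZT6 replicate 2, or LL ZT0 replicates 1 or 4, and Mrpl15 at ZT18 without SL ZT18 replicates 2 or 4, or LL ZT18 replicates 1 or 2.

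Replicate numbers did not pair the mice: over 112 pairs of libraries with the same number the correlation of deviations ran from -0.263 to 0.243 (median -0.01), and 9 of 32 libraries correlated best with their own number. With a replicate block the counts were 1 for SL, 8 for LL, 17 for the interaction, 1 at ZT0, 0 at ZT6, 13 at ZT12, 1 at ZT18 and 0 over the mean.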
